A study of Mus musculus with 6 samples.

Results

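Integrins and the proteins of the focal adhesion plaque are described here in cochlear organoids grown in soft and in stiff gels. The set was chosen by gene name: every integrin gene of the deposited table named with a letter a or b and a number, together with Itgav, and 30 genes of the plaque that forms on integrin tails inside the cell. All of them had a row, so the set holds 50 of the 15016 listed genes, of which 12 encode integrin alpha and 8 integrin beta subunits. The organoids came from progenitor cells of the mouse cochlea, genotype WT, and RNA-seq was measured in 3 libraries from soft gels and 3 from stiff gels. Both groups were expanded for 8 to 10 days in a medium with EGF, bFGF, IGF, the Wnt activator CHIR99021, valproic acid, phospho-ascorbic acid and the compound named 616452. Both were then moved to 3 µM CHIR99021 and 5 µM LY411575, a gamma-secretase inhibitor, and only at this step were they placed in gels of differing stiffness. The gel material, modified gelatin and hyaluronic acid with the cell-adhesive peptide RGD, is itself a ligand of some of the receptors described below. The sources used here do not give the animals' age, the stiffness of either gel or the time spent in the gels.

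Integrins are receptors for the extracellular matrix made of an alpha and a beta chain, and the alpha chain largely sets which matrix protein is bound. Their short cytoplasmic tails recruit talin and kindlin, which activate the receptor, and then vinculin, alpha-actinin, paxillin, focal adhesion kinase, the complex of ILK, PINCH and parvin, tensins and zyxin, which tie it to actin and pass on signals. In the developing inner ear, integrins are known to join the epithelium to the laminin-rich basement membrane, and ITGA8 is known for a role in hair bundle formation.

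Rebuilt depth was 16108470 to 17899391 reads per library over the listed genes. Replicates are numbered in the labels with no word on whether each was its own culture. The p-values therefore reflect the scatter among 6 libraries, part or all of which may be technical. Soft replicate 1 stood nearer to the stiff libraries than soft replicates 2 and 3 did: it was the lowest soft library for 76.3% of the 316 genes called lower in stiff gels, against 33.2% of all 11780 tested genes. Among the 7 adhesion genes called lower it was the lowest soft library for 5, all but Itga3 and Itga6. Of 12 markers of supporting and prosensory cells of the cochlear epithelium, all were listed and 2 (Prox1 and Fgfr3) stayed under 1 FPKM in every library. Of the 10 tested, 6 rose (limma, adjusted p under 0.05; Sox2, Jag1, Tecta, Lgr5, Otog and Gjb6), where 3.13% of all tested genes were called higher. The median log2 fold change was 0.63 over the 10, with Cdh1 the only one below 0 (-0.22, limma adjusted p = 0.13). Sox2, a transcription factor gene of the prosensory domain, went from 1.47 ± 0.797 to 5.03 ± 0.615 FPKM (SD, n = 3 each; limma adjusted p = 0.0104). The 12 summed to 851 to 1078 FPKM in soft and 1203 to 1271 FPKM in stiff gels, a sum in which S100a1 alone had a mean of 543 FPKM. Of 9 hair cell markers 3, Atoh1, Pou4f3 and Ocm, had no row in the deposited table, and the rest, led by Myo6, summed to 26.1 to 27.4 and 27.2 to 29.0 FPKM. Markers of other cell types that moved with the gels are given beside the adhesion results below.

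The adhesion genes that changed were all lower in stiff gels. Of the 50 genes, 40 had a mean of at least 1 FPKM (fragments scaled to gene length and to the library's total) in either group and were tested. Of these, 7 fell: the integrin alpha genes Itga3, Itga6 and Itga8, the paxillin gene Pxn, the parvin gene Parvb, the tensin gene Tns3 and the zyxin gene Zyx (limma on log2(FPKM + 1), Benjamini-Hochberg adjusted p under 0.05 over all tested genes). Over all tested genes, 2.68% were called lower, 3.13% higher and 5.81% in either direction. None of the 40 rose, with 0 called higher by limma, 0 higher at an unadjusted p under 0.05, 0 higher by limma-voom on rebuilt reads and 0 higher at q under 0.05 in the authors' deposited table. Over all 11780 tested genes, 1497 were higher at an unadjusted p under 0.05 and 487 by limma-voom. The authors' deposited table has 12 of the 40 lower at q under 0.05, where 5.37% of the same tested genes are lower and 4.09% higher. In bulk RNA, fewer cells of a type and less RNA per cell cannot be told apart.

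The direction was not shared by every tested gene of the set. Taken as stiff minus soft, the median difference in log2(FPKM + 1) was -0.13 over the 40 tested genes and 0.03 over all tested genes. It was negative for 29 of the 40 (72.5%), against 41.2% of all tested genes. Every stiff library lay below every soft library for 15 of the 40 genes, where the share over all tested genes was 10.4%. These 15 were Itga1, Itga3, Itga6, Itga7, Itga8, Itgb1, Actn1, Vcl, Ilk, Parvb, Src, Pxn, Tns2, Tns3 and Zyx. Every stiff library lay above every soft library for 1 gene, the adaptor gene Crkl, where the share over all tested genes was 15.5%. Its level was 17.8, 16.6 and 18.7 FPKM in soft replicates 1 to 3 and 18.9, 18.9 and 18.8 FPKM in stiff replicates 1 to 3, and it was not called (limma adjusted p = 0.476).

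**Figure D1:**
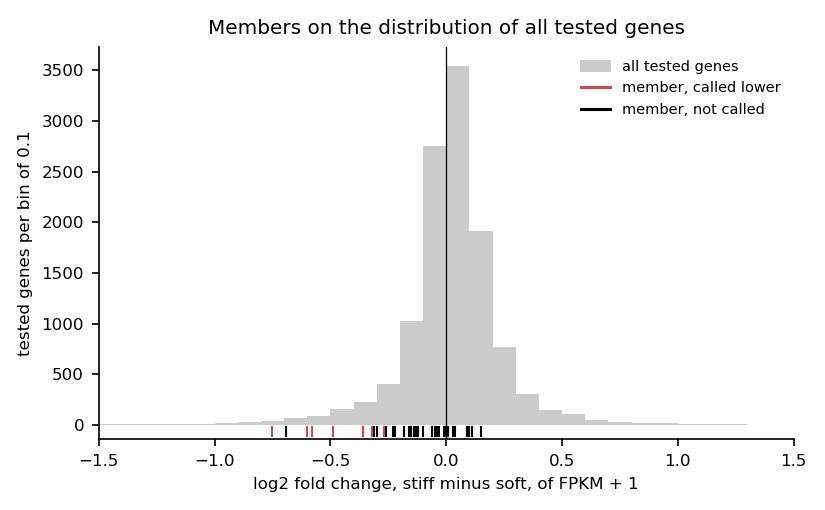
Difference in log2(FPKM + 1), stiff minus soft, of all 11780 tested genes (grey bars, genes per bin of 0.1) and of the 40 tested adhesion genes (ticks under the bars); the axis shows -1.5 to 1.5, and genes beyond it are not drawn. The 7 called genes (red ticks) lie from -0.75 to -0.27, and the highest adhesion gene lies at 0.15.

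Laminin receptors were the most abundant integrin alpha genes, and both main ones were lower in stiff gels. Itga3 and Itga6 encode the alpha chains of the epithelial receptors for laminin, the core protein of basement membranes. Itga3 (chromosome 11, 95044474 to 95076801, GRCm38, minus strand) was at 47.8, 47.6 and 52.1 FPKM in soft replicates 1 to 3 and at 38.3, 29.4 and 30.4 FPKM in stiff replicates 1 to 3. The soft libraries lay close together, soft replicate 1 included, and all stiff libraries were below them. Its mean fell from 49.2 ± 2.52 to 32.7 ± 4.84 FPKM (SD, n = 3 each), which is -0.58 ± 0.10 (SE) in log2(FPKM + 1), with a limma adjusted p of 0.0147. Itga6 (chromosome 2, 71745616 to 71858416, plus strand) was at 31.0, 31.5 and 28.8 FPKM in soft and 24.6, 24.3 and 23.7 FPKM in stiff gels. It fell by 0.32 on the log2 scale (limma adjusted p = 0.0209), and soft replicate 3, not soft replicate 1, was the lowest soft library. The third laminin receptor gene, Itga7, known from muscle, was near the detection filter at 0.821, 1.31 and 0.937 FPKM in soft and 0.706, 0.593 and 0.586 FPKM in stiff gels. It was tested only because its soft mean reached 1 FPKM, and it was not called (log2 fold change -0.31, limma adjusted p = 0.155), while the authors' deposited table has it lower by a log2 fold change of -0.73 (q = 0.0311).

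RefSeq lists 2 promoter windows for Itga3, printed here because 1 of them holds a motif of a stress- and growth-responsive factor and the other does not. Each window runs from 250 bases before a transcription start to 50 after it (300 bases, build GRCm38.p6, 5′ to 3′ on the gene's strand). They were searched on both strands for the TEAD motif GGAATG, the AP-1 motif TGANTCA and the SRF CArG box, and capitals mark matches, placed by their first base. The upstream window (chr11:95076665-95076964, minus strand) has no match, and the window of the internal start (chr11:95069149-95069448, minus strand) has an AP-1 match 12 bases after the start.
Itga3 upstream start: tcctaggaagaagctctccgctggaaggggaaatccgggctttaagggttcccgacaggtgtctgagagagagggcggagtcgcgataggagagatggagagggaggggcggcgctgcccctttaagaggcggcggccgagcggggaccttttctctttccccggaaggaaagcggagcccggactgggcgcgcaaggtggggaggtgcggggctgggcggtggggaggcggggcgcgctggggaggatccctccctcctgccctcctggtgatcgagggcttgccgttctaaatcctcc
Itga3 internal start: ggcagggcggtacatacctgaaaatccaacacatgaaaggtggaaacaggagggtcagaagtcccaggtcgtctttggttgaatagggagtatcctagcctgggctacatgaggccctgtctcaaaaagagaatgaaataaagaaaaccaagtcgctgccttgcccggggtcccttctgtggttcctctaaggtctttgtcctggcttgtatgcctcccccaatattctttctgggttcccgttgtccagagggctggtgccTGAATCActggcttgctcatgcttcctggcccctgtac
The gene-level values do not show which start was used, and a match of letters is a description of the window.

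Receptors of the RGD motif, which is also the peptide in the gel, held the called gene with the largest fold change. Itga8 encodes the alpha chain of the nephronectin receptor (chromosome 2, 12106632 to 12301922, minus strand). Its level was 14.3, 19.9 and 24.1 FPKM in soft and 11, 12.3 and 9.58 FPKM in stiff gels. The groups did not overlap, although soft replicate 1 was nearer to the highest stiff library than to soft replicate 2. Itga8 fell by 0.75 on the log2 scale (SE 0.16, limma adjusted p = 0.033), from a mean of 19.4 ± 4.92 to 11 ± 1.34 FPKM (SD, n = 3 each). Itga5, the alpha chain of the classical fibronectin receptor, was at 7.45 FPKM in soft replicate 1 against 14.8 and 16.3 FPKM in soft replicates 2 and 3, and at 6.97, 8.41 and 6.29 FPKM in stiff gels. Soft replicate 1 thus lay within the stiff range, and Itga5 was not called (log2 fold change -0.69 ± 0.24 SE, limma adjusted p = 0.127), whereas without that library its limma adjusted p was 0.000634. The chain of Itgav pairs with several beta chains to bind vitronectin and latent TGF-beta. Itgav was at 13.0, 15.1 and 15.1 FPKM in soft and 13.3, 13.0 and 13.1 FPKM in stiff gels. Soft replicate 1 was thus at the stiff level, with soft replicates 2 and 3 above it. Itgav was not called (limma adjusted p = 0.397, with a log2 fold change of -0.12).

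The other alpha genes were not called. Itga9, which encodes a receptor chain for tenascin and other ligands, was at 18.8, 15.7 and 13.1 FPKM in soft and 21.1, 14.7 and 15.5 FPKM in stiff gels, so that the groups overlapped (limma adjusted p = 0.778). The collagen receptor genes were low: Itga1 had means of 2.32 ± 0.374 and 1.76 ± 0.255 FPKM (SD, n = 3; limma adjusted p = 0.215) and Itga10 had 0.957 and 1.16 FPKM, passing the filter only through the stiff group (limma adjusted p = 0.488). Exons of Itga10 share 33.5% of their bases with the overlapping gene model Gm42957 on the same strand, so its reads may be split between them. Itga2, Itga11 and Itga4 were under the filter, at means over all libraries of 0.32, 0.349 and 0.378 FPKM.

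Summed over the 12 genes, integrin alpha RNA was 137, 150 and 155 FPKM in soft and 120, 107 and 103 FPKM in stiff gels, without overlap. This sum follows from the genes chosen and is given without a test. The laminin receptor genes made up 58.1%, 53.5% and 52.7% of it in soft and 52.9%, 51.0% and 53.3% in stiff gels. Their summed level went from 80.6 ± 1.12 to 57.5 ± 5.25 FPKM (SD, n = 3 each), so that their level was apart between the gels while their share overlapped. The RGD receptor genes summed to 34.7, 49.7 and 55.5 FPKM in soft and 31.3, 33.6 and 29.0 FPKM in stiff gels. Itga4 and Itga9 together made up 11.1 ± 2.69% of alpha RNA in soft and 15.8 ± 1.83% in stiff gels (SD, n = 3 each). The collagen receptor genes made up 2.73% and 3.18%. Among single genes, the share of Itgav went from 9.72 ± 0.282% to 12 ± 0.854% (SD, n = 3 each). Its stiff mean was 91.3% of its soft mean, against 74.4% for summed alpha RNA.

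**Figure D2:**
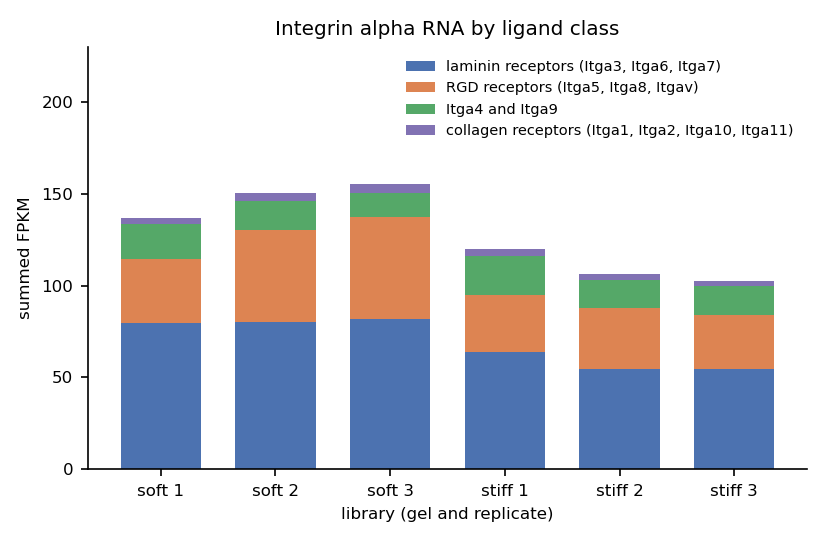
Stacked bars of FPKM summed by ligand class of the integrin alpha genes, for each of the 6 libraries. The laminin receptor part is 79.6 to 81.8 FPKM in the soft and 54.3 to 63.6 FPKM in the stiff libraries; the RGD receptor part of soft replicate 1 (34.7 FPKM) is nearer to the stiff libraries than to the other soft ones.

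Among the beta genes, Itgb1 was by far the most abundant and was not called. Its product is the common partner of ITGA3, ITGA6, ITGA5, ITGA8 and most other alpha chains. Itgb1 (chromosome 8, 128685654 to 128733200, plus strand) was at 152, 151 and 165 FPKM in soft and 133, 133 and 135 FPKM in stiff gels. The groups did not overlap, and the stiff libraries lay close together. Its log2 fold change was -0.22 ± 0.06 (SE), just short of the threshold (limma adjusted p = 0.0686), and the authors' deposited table has it lower with q = 0.00971. Itgb1 held 88.0 ± 0.753% of summed beta RNA in soft and 87.2 ± 0.855% in stiff gels (SD, n = 3 each).

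The 3 other tested beta genes gave 0 calls by limma, 0 at an unadjusted p under 0.05, 0 by limma-voom and 0 in the authors' deposited table. Itgb4, whose chain pairs with ITGA6 in hemidesmosomes, the anchors of epithelia to keratin filaments, was at 8.73, 8.55 and 8.53 FPKM in soft and 8.74, 7.06 and 7.45 FPKM in stiff gels (limma adjusted p = 0.375). Itga6 was thus called lower while Itgb4 was not, and the difference between the genes was not tested. Itgb5 and Itgb8, partners of ITGAV, had means of 8.09 and 6.94 FPKM and of 3.22 and 3.34 FPKM in soft and stiff gels. Itgb5 was called lower only without soft replicate 1 (limma adjusted p = 0.0179), which had 6.18 FPKM against 9.15 and 8.94 FPKM in the other soft libraries. Itgb3, a platelet and osteoclast chain also found in motile cells, was under the filter, at 0.368, 0.347 and 0.6 FPKM in soft and 0.762, 0.518 and 0.781 FPKM in stiff gels. Itgb6 was at 0.754 and 0.77 FPKM. The leukocyte chains Itgb2 and Itgb7 were at background, with 0 to 6 and 0 to 8 rebuilt reads per library, where a count of 0 allows up to 3 reads for counting error alone.

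**Figure D3:**
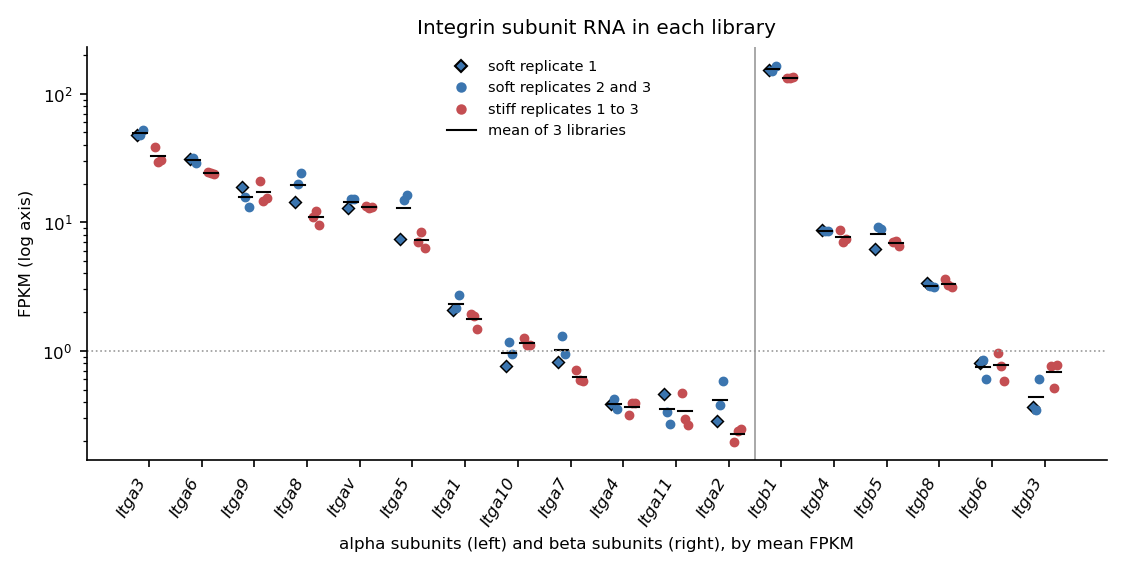
FPKM on a log axis of 18 integrin genes in each library, alpha genes left and beta genes right, in order of mean level; black bars are means of 3 libraries and the dotted line is the filter at 1 FPKM. Itgb2 and Itgb7, which have libraries at 0, are not drawn. Itga3, Itga6, Itga8 and Itgb1 show soft and stiff libraries apart, and soft replicate 1 (diamond) lies among the stiff libraries for Itga5.

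The linkers between beta tails and actin gave no call, and the vinculin gene was the nearest to one. Of 6 tested linkers 0 were called by limma, with 1 at an unadjusted p under 0.05, 1 by limma-voom on rebuilt reads and 1 in the authors' deposited table, which is Vcl each time. Vinculin strengthens adhesions under load by joining talin to actin. Vcl (chromosome 14, 20929398 to 21033676, plus strand) was at 33.9, 41.0 and 44.1 FPKM in soft and 31.9, 31.8 and 28.3 FPKM in stiff gels. The groups did not overlap, but soft replicate 1 was nearer to the stiff libraries than to the other soft ones, and Vcl was not called (log2 fold change -0.36 ± 0.10 SE, limma adjusted p = 0.0686). Without soft replicate 1 its limma adjusted p was 0.00425, and the authors' deposited table has q = 0.00343. The libraries do not mark strand, and 25.5% of the exon bases of Vcl lie opposite exons of Ap3m1, so reads there cannot be assigned to either gene.

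The other linkers stayed near their soft level. Actn4, an alpha-actinin gene and the most abundant gene of the set, was at 181, 167 and 164 FPKM in soft and 192, 163 and 165 FPKM in stiff gels (log2 fold change 0.01 ± 0.08 SE, limma adjusted p = 0.954). Its relative Actn1 had means of 23.5 ± 1.4 and 21.1 ± 0.632 FPKM (SD, n = 3; limma adjusted p = 0.231). The talin genes, whose products open the integrin, also differed little: Tln1 had means of 28.3 and 25.3 FPKM and Tln2 of 4.24 and 4.63 FPKM (limma adjusted p = 0.433 and 0.634). Kindlin-2, a talin partner encoded by Fermt2, was level at 48.5 ± 2.52 and 48.7 ± 1.36 FPKM (SD, n = 3; limma adjusted p = 0.974). The epithelial kindlin gene Fermt1 was under the filter, at 0.809 and 0.562 FPKM.

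In the complex of ILK, PINCH and parvin, which couples beta tails to actin, Parvb was lower and its more abundant relative was not. Parvb (chromosome 15, 84232043 to 84315688, plus strand) was at 3.57, 4.71 and 4.73 FPKM in soft and 2.53, 2.98 and 2.84 FPKM in stiff gels. All stiff libraries lay below the soft ones, of which soft replicate 1 was the lowest. Its log2 fold change was -0.49 ± 0.11 (SE; limma adjusted p = 0.033), and the authors' deposited table, without a pseudocount, gives -0.67. Parva, encoding the alpha parvin that fills the same place in the complex, was at 48.7, 42.5 and 41.7 FPKM in soft and 43.6, 44.0 and 43.5 FPKM in stiff gels (limma adjusted p = 0.94). Parvb thus made up 6.83%, 9.97% and 10.2% of summed Parva and Parvb RNA in soft and 5.48%, 6.35% and 6.13% in stiff gels. Ilk was at 115, 126 and 121 FPKM in soft and 108, 111 and 104 FPKM in stiff gels and was not called (limma adjusted p = 0.165). Of its GENCODE exon bases, 89.7% lie opposite exons of Rrp8 or Taf10, so without strand its reads may be mixed with theirs. The PINCH gene Lims1 was level (12.9 and 13.2 FPKM, limma adjusted p = 0.838), and Lims2 was under the filter at 0.242 and 0.33 FPKM.

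Of 9 genes of adhesion signalling, the scaffold gene Pxn fell and the kinase genes were not called. Paxillin is the docking protein for focal adhesion kinase, Crk and vinculin. Pxn (chromosome 5, 115506676 to 115555987, plus strand) was at 29.1, 31.3 and 30.8 FPKM in soft and 26.1, 24.2 and 24.5 FPKM in stiff gels. Spread was small in both groups, and the log2 fold change was -0.27 ± 0.06 (SE; limma adjusted p = 0.0354). Ptk2, the gene of focal adhesion kinase, had means of 16.6 ± 0.57 and 18.0 ± 0.78 FPKM (SD, n = 3; limma adjusted p = 0.377). Src was at 24.8, 25.6 and 25.0 FPKM in soft and 23.6, 24.3 and 22.3 FPKM in stiff gels, apart but close (limma adjusted p = 0.372). The p130Cas gene Bcar1, a substrate of Src that is stretched under force, went from 28.9 to 24.7 FPKM with stiff replicate 1 at the soft level (27.9 FPKM), and was not called (log2 fold change -0.23, limma adjusted p = 0.152). Git1, an adaptor gene and the most abundant of this role, had means of 39.9 and 38.2 FPKM (limma adjusted p = 0.627). Git1, Nedd9, Crk and Crkl lay between 95.9% and 107% of their soft means. Tgfb1i1, which encodes the paxillin relative Hic-5, scattered in both groups, from 3.53 to 6.90 FPKM in soft and from 3.36 to 6.77 FPKM in stiff gels.

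Tensins bind beta tails in mature, elongated adhesions, and of the 3 tested genes Tns3 fell. Tns3 (chromosome 11, 8431652 to 8664535, minus strand) was at 18.9, 23.1 and 25.0 FPKM in soft and 15.4, 14.7 and 13.0 FPKM in stiff gels. The log2 fold change was -0.60 ± 0.10 (SE; limma adjusted p = 0.0164), and the authors' deposited table gives q = 3.34e-07, the lowest of the set. Tns2 was at 11.6, 13.8 and 15.0 FPKM in soft and 10.3, 9.78 and 10.7 FPKM in stiff gels. As for Tns3, soft replicate 1 was the soft library nearest to the stiff ones, and Tns2 stayed short of the threshold (log2 fold change -0.36 ± 0.09 SE, limma adjusted p = 0.0591), though the authors' deposited table has q = 0.00324. Tns1 was level, at 5.75 and 5.53 FPKM (limma adjusted p = 0.852), so that Tns3 made up 52.9 ± 2.19% of tensin RNA in soft and 46.9 ± 1.62% in stiff gels (SD, n = 3 each). Tns4 was under the filter.

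Zyxin and its relatives sit at the actin end of the plaque, where zyxin gathers when stress fibres are strained and recruits the Ena/VASP proteins that extend actin. Zyx (chromosome 6, 42349630 to 42360213, plus strand) was at 68.3, 71.5 and 81.6 FPKM in soft and 56.8, 61.1 and 54.0 FPKM in stiff gels. It fell by 0.36 on the log2 scale (SE 0.08, limma adjusted p = 0.0371), with the highest stiff library below the lowest soft one. Trip6, a zyxin relative of like structure, was level at 38.7, 37.5 and 36.2 FPKM in soft and 36.7, 36.9 and 35.7 FPKM in stiff gels (limma adjusted p = 0.764). Lpp, the other relative, went from 5.77, 7.12 and 7.18 FPKM to 5.78, 5.16 and 4.76 FPKM. Soft replicate 1 and stiff replicate 1 met there, and Lpp was not called (limma adjusted p = 0.113), while the authors' deposited table has q = 0.00936. Vasp and Enah, of the Ena/VASP family, had means of 46.2 and 42.6 FPKM and of 21.0 and 22.4 FPKM (limma adjusted p = 0.541 and 0.556). Summed over the 30 plaque genes, RNA was 908, 929 and 927 FPKM in soft and 877, 851 and 822 FPKM in stiff gels.

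**Figure D4:**
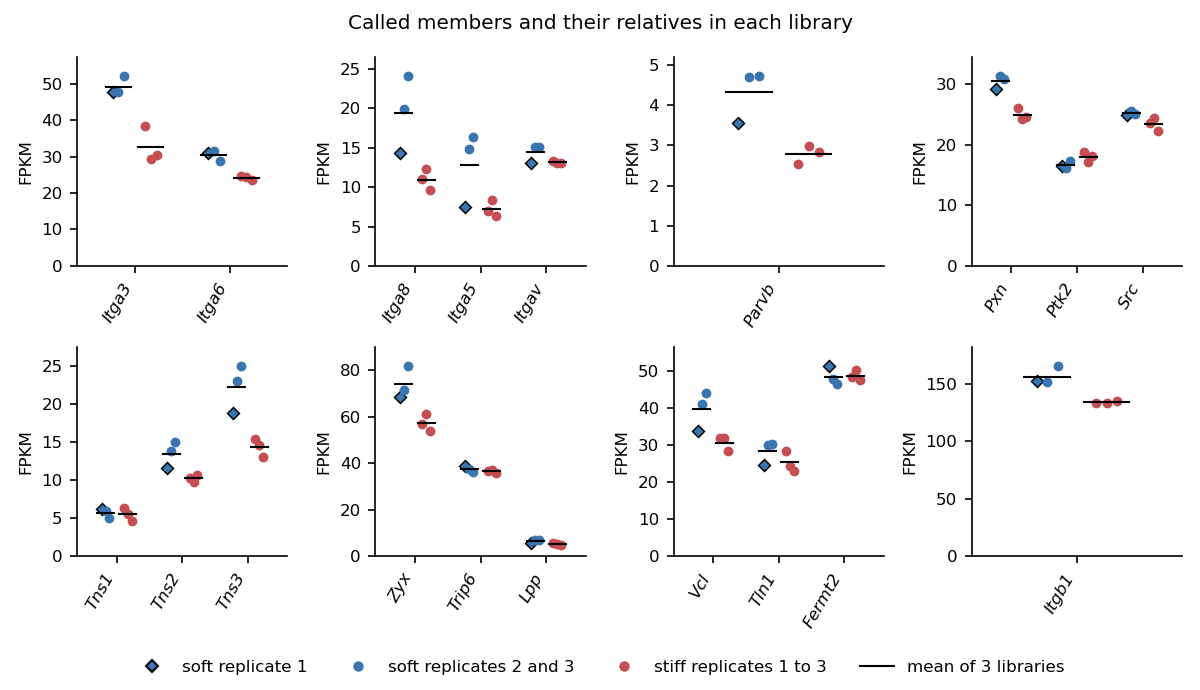
FPKM in each library of the 7 called genes, of Itgb1 and of genes related to them by role, on axes that start at 0; black bars are means of 3 libraries. Fermt2, Trip6 and Tns1 show soft and stiff libraries at the same level, beside Vcl, Zyx and Tns3, for which the stiff libraries lie lower.

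The promoter windows of Zyx, Vcl and Trip6 are printed because Vcl and Trip6, chosen after their values were seen, hold the same pair of motifs while only Vcl had groups apart. The Zyx window (chr6:42349578-42349877, plus strand) has an AP-1 match 121 bases before the start. The Vcl window (chr14:20929148-20929447, plus strand) has a CArG box 227 and a TEAD match 143 bases before the start, and the Trip6 window (chr5:137314192-137314491, minus strand) has a TEAD match 32 bases before and a CArG box 1 base after it.
Zyx: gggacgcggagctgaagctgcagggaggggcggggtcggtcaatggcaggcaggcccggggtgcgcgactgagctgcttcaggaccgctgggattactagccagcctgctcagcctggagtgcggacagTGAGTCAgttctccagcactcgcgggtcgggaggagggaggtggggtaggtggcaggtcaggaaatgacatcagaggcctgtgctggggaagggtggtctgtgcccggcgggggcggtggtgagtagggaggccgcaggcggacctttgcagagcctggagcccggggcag
Vcl: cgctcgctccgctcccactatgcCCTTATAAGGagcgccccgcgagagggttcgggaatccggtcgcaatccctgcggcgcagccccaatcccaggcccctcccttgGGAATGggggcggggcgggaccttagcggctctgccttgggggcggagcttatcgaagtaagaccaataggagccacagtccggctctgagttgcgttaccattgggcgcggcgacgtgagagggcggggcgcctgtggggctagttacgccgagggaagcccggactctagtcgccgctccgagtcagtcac
Trip6: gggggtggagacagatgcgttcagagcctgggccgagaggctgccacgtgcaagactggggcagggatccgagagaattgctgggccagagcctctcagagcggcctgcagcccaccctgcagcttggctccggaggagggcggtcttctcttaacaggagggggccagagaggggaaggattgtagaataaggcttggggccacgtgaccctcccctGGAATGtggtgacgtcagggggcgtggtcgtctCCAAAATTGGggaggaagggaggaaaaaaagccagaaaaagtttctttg
RefSeq gave 46 windows for 38 of the 50 genes. The SRF CArG box was found in 4 of the 46 (8.7%; Fermt2, Itgb6, Trip6 and Vcl), against 1.63% of all 32851 windows. The TEAD motif was found in 6 (13.0%, against 14.7%) and the AP-1 motif in 4 (8.7%, against 7.81%). Of the 5 called genes with a window, Itga8, Parvb and Tns3 held none of the motifs and are not printed. The RefSeq start of Itga8 lies outside the GENCODE transcripts, so its window may not be the promoter in use. Of the 4 genes with a CArG box, Fermt2, Trip6 and Vcl were tested and not called, and Itgb6 was under the filter.

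**Figure D5:**
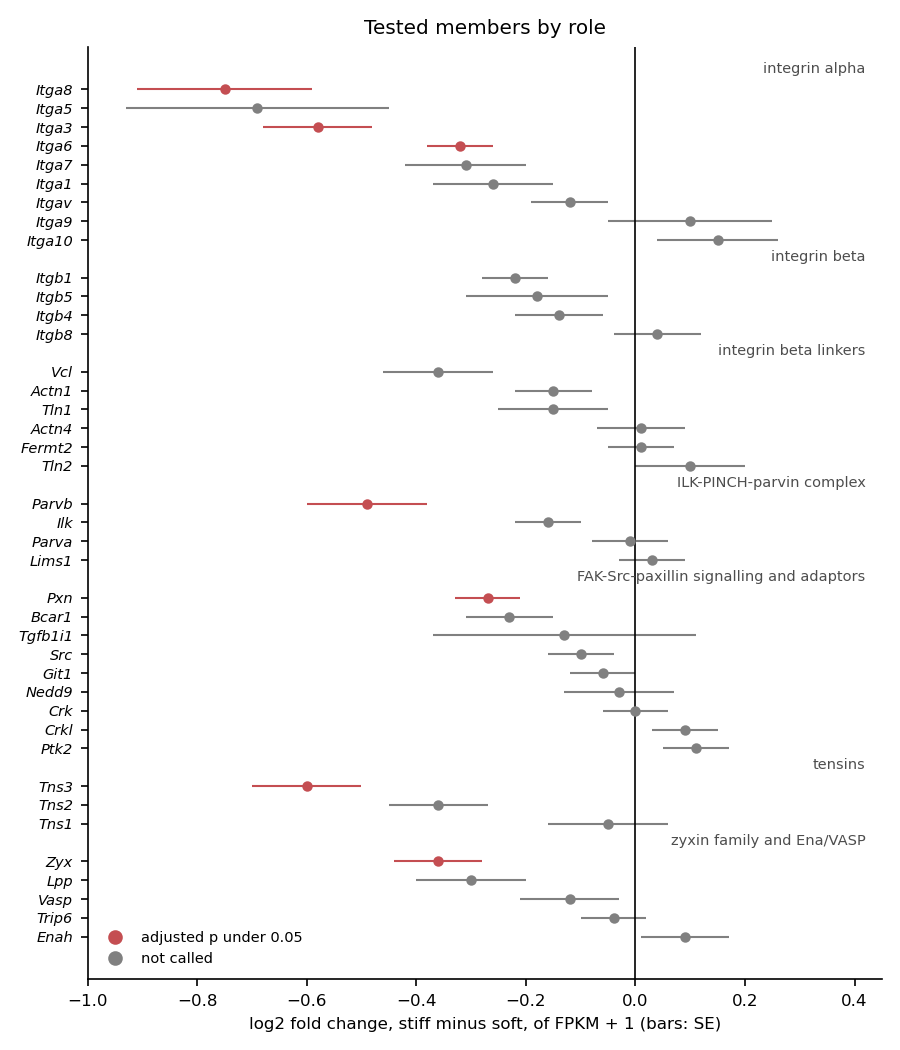
Difference in log2(FPKM + 1), stiff minus soft, with its SE, for the 40 tested genes grouped by role. Red points are the 7 called genes; each of the 5 roles outside the beta genes and the linkers holds at least 1 of them, and the genes right of 0 reach 0.15 at most.

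The number of calls rested on single libraries. Without soft replicate 1, all 7 genes stayed called and Itga5, Itgb1, Itgb5, Lpp, Tns2 and Vcl were called lower as well, which makes 13 of 40, where 6.42% of all tested genes were lower. Without soft replicate 2, and likewise without stiff replicate 3, 0 of the 40 were called by limma, with 10 at an unadjusted p under 0.05 in each fit and lowest adjusted p of 0.0615 and 0.0593. Only Itga6 stayed called without soft replicate 3, only Itga3 without stiff replicate 1, and Itga3 and Tns3 without stiff replicate 2. Calls over all genes also dropped there, from 316 lower and 369 higher to 15 and 50 without soft replicate 2 and to 54 and 89 without stiff replicate 3. The log2 fold change of each of the 7 genes was negative in all 6 fits, and the highest limma adjusted p among those fits was 0.0615 for Itga3, 0.0781 for Tns3, 0.0902 for Itga6, 0.123 for Itga8, 0.13 for Parvb, 0.133 for Pxn and 0.137 for Zyx.

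Genes around the set moved to differing degrees. Ligands of integrins, most of them in the matrix and some on cell surfaces, had 4 of 29 tested genes lower and 1 higher by limma. Over all tested genes, 2.68% were lower and 3.13% higher. Other counts for the ligands were larger: 16 lower and 3 higher at an unadjusted p under 0.05, 9 and 3 by limma-voom, and 12 and 3 in the authors' deposited table. In the same order, the counts over all 11780 tested genes were 1065 and 1497, 435 and 487, and 632 and 482. The ligand genes lower by limma were the osteopontin gene Spp1 (357 ± 111 to 123 ± 16.4 FPKM; SD, n = 3; limma adjusted p = 0.00918), the basement membrane collagen genes Col4a2 and Col4a1, and the cell surface protein gene Adam9. The higher one was the periostin gene Postn, at 18.9, 20.6 and 18.7 FPKM in soft and 48.3, 62.3 and 35.9 FPKM in stiff gels. Fn1, the fibronectin gene and the ligand gene with the highest mean over all libraries, was at 233, 346 and 393 FPKM in soft and 255, 222 and 197 FPKM in stiff gels, so that soft replicate 1 lay in the stiff range as for the receptor gene Itga5, and it was not called (limma adjusted p = 0.137).

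Regulators had few calls by limma, as did all tested genes, of which 2.68% were lower and 3.13% higher. At an unadjusted p under 0.05, 1065 of all 11780 tested genes were lower and 1497 higher. The counts over all tested genes were 435 and 487 by limma-voom, and 632 and 482 in the authors' deposited table. Of 30 integrin activation and trafficking genes 0 were called by limma (7 lower and 2 higher at an unadjusted p under 0.05; 1 lower and 1 higher by limma-voom; 2 lower and 1 higher in the authors' deposited table), and the tetraspanin gene Cd9 was the most abundant at 195 and 230 FPKM. Of 43 adhesion kinase and GTPase genes 1 was called by limma, the Rac exchange factor gene Arhgef6, which rose from 1.64 ± 0.143 to 2.69 ± 0.115 FPKM (SD, n = 3; limma adjusted p = 0.0159). In that list 8 were lower and 4 higher at an unadjusted p under 0.05, 0 lower and 1 higher by limma-voom, and 5 lower and 1 higher in the authors' deposited table. Its most abundant gene was Cfl1, which encodes the actin-severing protein cofilin, at 871 and 830 FPKM.

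Of 40 other plaque scaffold genes 3 fell by limma, Pdlim1, Fhl3 and the zyxin-binding gene Tes. In the same list 2 rose, the adaptor gene Nck2 and the ezrin gene Ezr, which links membrane to actin. By limma, 2.68% of all tested genes were lower and 3.13% higher. At an unadjusted p under 0.05, 12 scaffold genes were lower and 4 higher, 3 and 2 by limma-voom, and 8 and 2 in the authors' deposited table. In the same order, the counts over all 11780 tested genes were 1065 and 1497, 435 and 487, and 632 and 482. Every stiff library lay below every soft library for 12 of the 40 scaffold genes and above for 2, where the shares over all tested genes were 10.4% and 15.5%. The profilin gene Pfn1 was the most abundant, at 283 and 271 FPKM. Of 3 tested hemidesmosome genes 0 were called by limma (1 lower at an unadjusted p under 0.05, 1 lower by limma-voom and 1 lower in the authors' deposited table), and the tetraspanin gene Cd151 was the most abundant at 81.7 and 82.9 FPKM. Median log2 fold changes were -0.35 for the ligands, -0.01 for activation and trafficking, -0.02 for kinases and GTPases, -0.00 for the scaffolds (20 of 40 negative) and -0.13 for hemidesmosomes, where the median of all tested genes was 0.03.

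Markers of other cell types moved with the gels beside these results. By limma, 2.68% of all tested genes were called lower and 3.13% higher. At an unadjusted p under 0.05, 1065 of the 11780 were lower and 1497 higher, and 435 and 487 by limma-voom. The 8 smooth muscle and pericyte markers summed to 18.7 to 24.2 FPKM in soft and 10.0 to 12 FPKM in stiff gels. Rgs5 made up most of that sum, and 6 of the 8 (Acta2, Myh11, Cnn1, Des, Cspg4 and Kcnj8) stayed under 1 FPKM in every library. The smooth muscle and pericyte gene Rgs5 fell from 18.2 ± 2.18 to 8.5 ± 0.841 FPKM (SD, n = 3; limma adjusted p = 0.00354). The 6 squamous epithelium markers summed to 25.6 to 30.9 and 15.2 to 20.4 FPKM. Of its 3 tested genes Sprr1a fell (limma adjusted p = 0.02), the most abundant, Ivl, overlapped between the gels, and Krt5 and Krt6a were under 1 FPKM. The 12 mesenchyme markers did not move one way. Their sum was 618 to 745 FPKM in soft and 772 to 795 FPKM in stiff gels, carried by Lum (326 and 411 FPKM) and Dcn (125 and 181 FPKM). Of the 10 tested, 0 were called by limma (1 lower and 3 higher at an unadjusted p under 0.05; 1 lower and 1 higher by limma-voom; 0 in the authors' deposited table), the median log2 fold change was 0.09 and 4 were negative. Col3a1 was among these, at 43.4, 90.4 and 84.4 FPKM in soft and 36.3, 44.5 and 24.4 FPKM in stiff gels (means 72.7 and 35.1 FPKM, limma adjusted p = 0.074), and Pdgfrb had a log2 fold change of -0.30 (limma adjusted p = 0.416). Col1a1 and Col1a2 were under 1 FPKM throughout and were not tested by limma. The authors' deposited table has Col1a2 lower (log2 fold change -2.05, q = 5.24e-05), at 9 to 55 rebuilt reads per library, and Col1a1 not called (q = 0.602). Of 10 blood and macrophage markers, 6 had no row in the deposited table, among them Ptprc, the defining leukocyte gene, and the rest, led by Cd68, summed to 5.24 to 8.29 and 5.89 to 8.07 FPKM. Of the 7 endothelial markers 4 were tested and 1 fell. This was Kdr, a receptor gene for vascular endothelial growth factor, at 18.8, 27.2 and 28.2 FPKM in soft and 10.8, 12.8 and 8.68 FPKM in stiff gels, without overlap (log2 fold change -1.13 ± 0.16 SE, limma adjusted p = 0.0104). The sum of the 7 overlapped, at 392 to 458 and 341 to 426 FPKM, but most of it was Emcn (376 FPKM over all libraries), and Pecam1, Tie1 and Vwf stayed under 1 FPKM. Of these low genes, the authors' deposited table has Vwf lower (log2 fold change -1.09, q = 0.00233) and Pecam1 and Tie1 not called (q = 0.941 and 0.895). Of 7 neuron markers 4 had a row in the deposited table, and of 5 melanocyte markers 3. Those with a row, led by Tubb3 and Pmel, summed to under 2 FPKM for either cell type in every library. The part of these cell types in the adhesion results was not tested.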

How the data were processed

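RNA-seq of 6 libraries (3 soft, 3 stiff) was analysed from 1 deposited table. The authors' expression columns were taken to hold FPKM: the header gives no unit, and the values carry gene-length-dependent steps of whole reads. TopHat2 2.1.1, mm10 and DESeq2 are named per the submitters' processing notes, while counter and annotation are not given in the sources used here. Deposited by the authors too, the base mean is a signal (mean normalized count), and the log2 fold change with its SE, the linear fold change, the test score and the p-value and q-value are the authors' comparison, per the file headers.

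The set and the gene lists were chosen with earlier results of these data known. Reads were rebuilt from FPKM and base mean: 100.0% of values came out whole within 0.05 reads. The planned test was used: limma 3.58.1 (R 4.3.3) with an intensity trend on log2(FPKM + 1) over the 11780 genes with a mean of at least 1 FPKM in either group, with Benjamini-Hochberg adjustment. Folds on this scale understate changes of low genes. The set was accounted for gene by gene. Values are named for called genes, for the most abundant and the nearest uncalled gene of each role, for genes with groups apart, for genes called only in the authors' table and for those under the filter. In other lists, the top called gene by adjusted p in either direction and the most abundant gene are named; further names there were chosen after their values were seen. Alternatives were another pseudocount, other filters, median-ratio scaling, limma-voom on rebuilt reads, no trend, a replicate block and leaving out each library. Gene positions are from GENCODE on GRCm38, the assembly mm10 refers to, and promoter sequences from RefSeq (GRCm38.p6). The scripts were tested on simulated data.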

Additional observations from a re-analysis of the deposited data

How the results depend on the processing

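The 7 calls were the same genes with a pseudocount of 0.1. The count was 4 without a filter on low values (Itga3, Itga6, Pxn and Tns3), 12 in the authors' deposited comparison, and from 0 to 13 when 1 library was left out; in each of these every call was lower and 0 were higher. It stayed within 1.5 times under a filter at 5 FPKM (6), median-ratio scaling (8, with Itgb1 added), limma-voom on rebuilt reads (9, with Tns2 and Vcl added) and no intensity trend (5, without Pxn and Zyx). With the replicate number as a block (replicate block) 5 were called, without Pxn and Zyx. The labels do not say that a number pairs the libraries. Same-numbered libraries deviated with correlations of 0.009, 0.219 and -0.211, and soft replicate 1 correlated best with stiff replicate 3 (0.347). Deviations from a mean of 3 libraries are tied to one another, so these values cannot decide whether a number pairs the libraries. Under median-ratio scaling the median log2 fold change of all tested genes moved from 0.03 to -0.00, and summed integrin beta RNA in stiff gels from 153 to 151 FPKM. Of all tested genes 369 were called higher and 316 lower, against 482 and 632 in the authors' deposited comparison. Depth limits Itgb2, Itgb7 and Lims2, with at most 26 rebuilt reads per library. The cause of these shifts was not tested.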

Other observations

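The focal adhesion pathway annotation carried by the deposited table, looked at after the results above were known, covers 189 genes, of which 35 belong to the set described here. Of the 126 other annotated genes that were tested, 7 fell and 3 rose (limma, adjusted p under 0.05), where 2.68% of all tested genes were lower and 3.13% higher. At an unadjusted p under 0.05, 25 were lower and 13 higher, 11 and 6 were called by limma-voom, and 18 and 7 in the authors' deposited table, where 5.37% of all tested genes are lower and 4.09% higher. Of all 11780 tested genes, 1065 were lower and 1497 higher at an unadjusted p under 0.05, and 435 and 487 by limma-voom. The median log2 fold change of the 126 was 0.00, and the most abundant was the actin gene Actb, at 1149 and 1065 FPKM. The lower ones were Spp1, Kdr, Pdgfb, Col4a1, Col4a2, Col6a6 and Ccnd2, which encode ligands, growth factor signalling proteins and a cyclin. The plaque genes of the set described here were left out of the 126 beforehand. The higher ones were the caveolin gene Cav1, the placental growth factor gene Pgf and the adaptor gene Shc4. Cav1 went from 38.1 ± 2.40 to 92.0 ± 2.83 FPKM (SD, n = 3 each).

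Integrin genes outside the naming pattern were low in every library. The platelet chain Itga2b was at 0.979 and 0.994 FPKM, and the leukocyte chain Itgal had 0 to 6 rebuilt reads per library. The integrin-like gene Itgbl1 was at 0.582, 0.455 and 0.455 FPKM in soft and 0.74, 0.948 and 0.843 FPKM in stiff gels, under the filter and therefore without a test. The ratio of Itgb1 FPKM to summed integrin alpha FPKM was 1.11, 1.01 and 1.07 in soft and 1.11, 1.25 and 1.31 in stiff gels, so the groups overlapped at replicate 1 of either gel.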
